A study of Mus musculus with 10 samples.

Results

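The GABA-B receptor is the metabotropic receptor for GABA. It is an obligate heterodimer in which the product of Gabbr1 binds GABA and the product of Gabbr2 couples to Gi/o proteins, and it is tuned by auxiliary KCTD subunits that bind the receptor and shape how fast its signal fades. Released G protein beta-gamma dimers open GIRK channels, the G protein-gated inward rectifiers, which carry potassium out of the cell and hyperpolarize it. GIRK channels are tetramers of the products of Kcnj3 (GIRK1), Kcnj6 (GIRK2), Kcnj9 (GIRK3) and Kcnj5 (GIRK4), and GIRK1 needs another GIRK subunit to reach the cell surface.

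The 9 genes described here were listed by name: 2 receptor genes (Gabbr1, Gabbr2), 3 auxiliary genes (Kctd8, Kctd12, Kctd16) and 4 GIRK genes (Kcnj3, Kcnj5, Kcnj6, Kcnj9). All 9 are among the 55367 genes of the deposited tables, and all 9 had at least 1 fragment in at least 1 neuron. The question was which parts of this inhibitory pathway were found together in single inspiratory neurons of the preBötzinger complex (preBötC), the brainstem site where the rhythm of inspiration arises.

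Patch-Seq libraries were made from the aspirated cytoplasm of 10 rhythmically active preBötC neurons in brainstem slices of neonatal mice, 1 library per neuron. Samples 1, 5, 6 and 7 were Dbx1-derived neurons of Dbx1;Ai148 mice of C57Bl/6J or mixed C57Bl/6J and CD1 background. In these mice Cre under the Dbx1 promoter switches on the calcium indicator GCaMP6f, so the label marks descent from Dbx1-expressing precursors and not present Dbx1 expression. Samples 2, 3, 4, 8, 9 and 10 were neurons of wild-type (WT) CD-1 mice, chosen because they fired with the hypoglossal motor output. By electrophysiology samples 4, 5, 6 and 7 were Type-1 (putatively rhythm-generating), sample 1 was Type-2 (putatively pattern-generating), and samples 2, 3, 8, 9 and 10 were Unknown. Samples 1, 3, 5 and 8 were taken on postnatal day 0, sample 10 on day 1, samples 2 and 9 on day 2, and samples 4, 6 and 7 on day 3. Type and mouse line are nearly the same split, since no Unknown neuron was Dbx1-derived and 1 Type-1 neuron was WT, so they cannot be told apart here. No animal is named in the labels, so neurons of the same animal cannot be recognised, each neuron is 1 sample, and no test between groups was made. The SD given below is the spread between neurons.

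Between 21392146 and 36629393 fragments per library were counted on genes. Sample 4, labelled Type-1, stood apart from its label: 8 of 8 microglia genes were at or above 1 FPKM, with a summed level of 14797 FPKM against 0.625 to 2030 FPKM in the other neurons, and 8 neuronal genes summed to 58.4 FPKM against 761 FPKM or more. At least 8 of 10 astrocyte genes were at or above 1 FPKM in samples 2, 3 and 8, against 5 or fewer elsewhere. Genes of the oligodendrocyte lineage reached 1 FPKM in at most 4 of 8 cases per neuron, and endothelial genes in at most 1 of 5. The glutamate transporter gene Slc17a6 was at or above 1 FPKM in samples 2, 5, 6, 7 and 8, and at least 2 of 4 GABAergic or glycinergic genes were in samples 1, 3 and 10. In sample 1, the only Type-2 neuron, Slc6a5 was at 146, Gad1 at 71.8 and Gad2 at 43.5 FPKM. Slc32a1 was at 0.0167 and Slc17a6 at 0.260 FPKM there. Of 4 genes used as markers of the preBötC (Tacr1, Sst, Oprm1, Reln), each neuron had between 0 and 3 at that level. Between 5055 (sample 3) and 9307 (sample 8) genes were at or above 1 FPKM in a library.

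The receptor genes were found in nearly every neuron and the channel genes in few. FPKM, the fragments of a gene for each kilobase of its length and each 1000000 fragments in the library, is a level per length and can be set side by side between genes. Gabbr2 was at or above 1 FPKM in 10 of 10 neurons and Gabbr1 in 9, and 0 of the other 7 genes reached 9 neurons. Over all genes with a fragment in any neuron, 12% reached 1 FPKM in at least 9 neurons. Kctd8 did so in 8 neurons, Kctd12 in 7, Kctd16 in 6, Kcnj9 in 3, Kcnj3 in 1, and Kcnj5 and Kcnj6 in 0. The mean number of these genes at or above 1 FPKM was 4.4 per neuron, and it ran from 2 in sample 1 to 6 in sample 7.

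**Figure D1:**
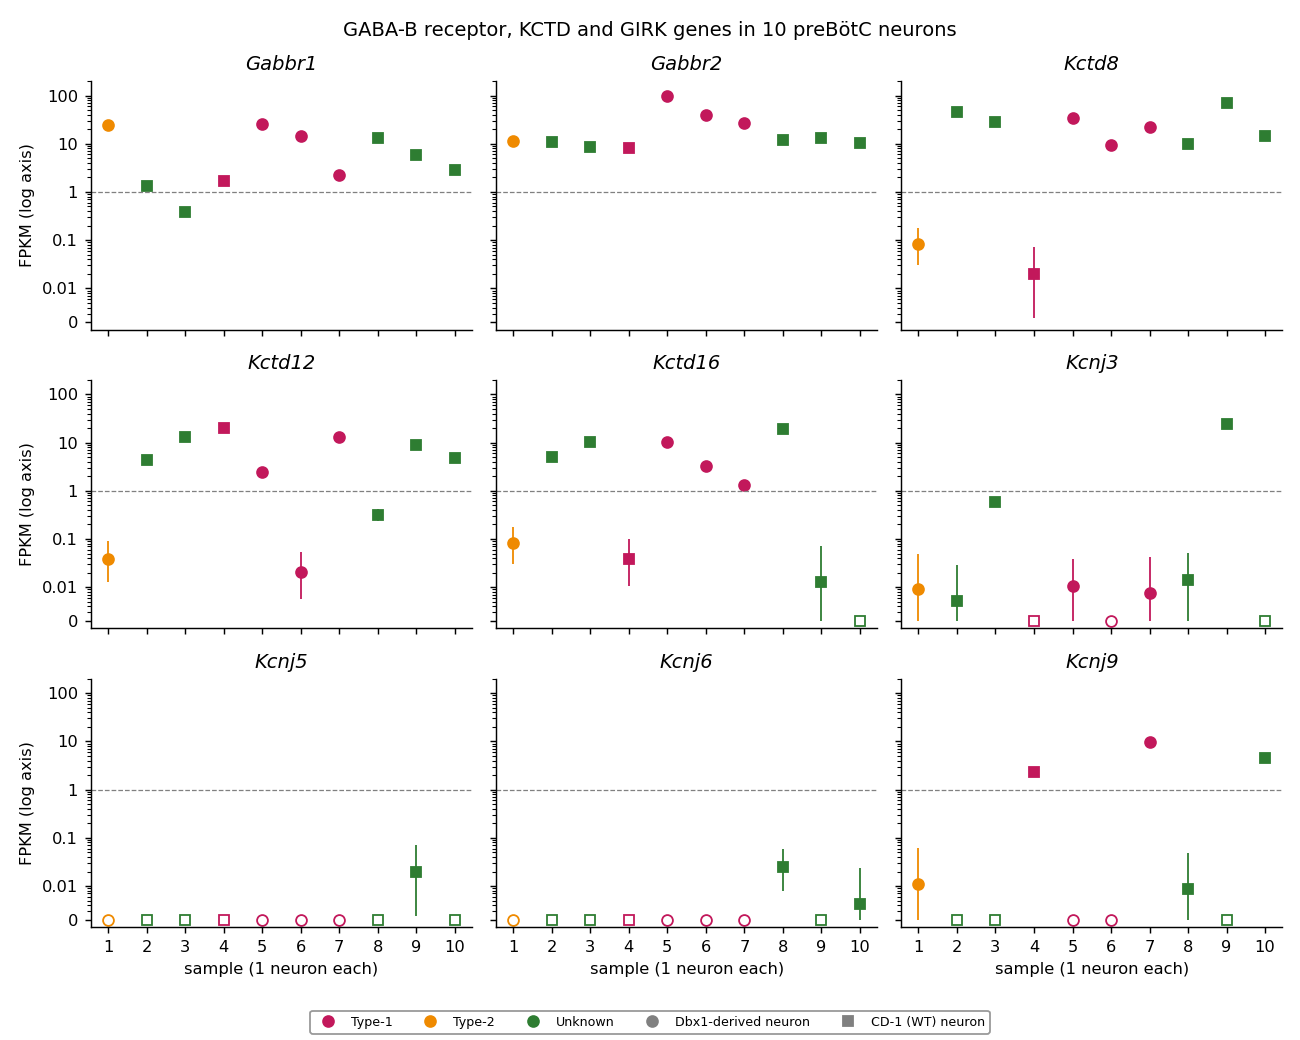
Level of each gene (FPKM, log axis) in the 10 neurons, each point 1 library and the dashed line 1 FPKM. Bars are the exact 95% Poisson interval of the fragments. Neurons without a fragment are drawn open at the foot of the axis, without a bar. Gabbr2 lies above the line in all 10 neurons, Kcnj5 and Kcnj6 lie below it in all 10, and Kcnj3 is above it in sample 9 alone.

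To show the DNA in front of genes at both ends of this order, 90 bases upstream of the start are given, 5′ to 3′ on the gene's strand, for Gabbr2 (at or above 1 FPKM in 10 neurons), Kctd8 (8 neurons) and Kcnj6 (0 neurons). The windows are RefSeq promoter sequence of GRCm38.p6 at chr4:46991874-46991963, chr5:69341710-69341799 and chr16:94997702-94997791, all on the minus strand, and capitals mark CpG dinucleotides.
Gabbr2: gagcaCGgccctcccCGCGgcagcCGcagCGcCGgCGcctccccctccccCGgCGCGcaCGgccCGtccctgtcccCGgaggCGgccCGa
Kctd8: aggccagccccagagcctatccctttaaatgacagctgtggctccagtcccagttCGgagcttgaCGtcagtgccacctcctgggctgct
Kcnj6: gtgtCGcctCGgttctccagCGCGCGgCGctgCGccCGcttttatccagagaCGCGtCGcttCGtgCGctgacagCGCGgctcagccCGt

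RefSeq windows were matched for 8 of the 9 genes (9 windows, with 2 starts for Kcnj6). In the 250 bases before the start Gabbr2 had 37 CpG, more than 97.8% of all 32851 windows, and Kctd12 had 36. The Kcnj6 window shown above had 26 CpG, more than 90.4% of windows, and its second start had 7. Gabbr1 had 16, Kcnj3 and Kcnj5 had 7 each, and Kctd8 and Kcnj9 had 5 each, where the median window had 6. The number of CpG therefore did not follow the order of detection, since Kctd8 had few and Kcnj6 many. The cyclic AMP response element TGACGTCA, which reads the same on both strands, was looked for in the windows of 300 bases after the sequences had been seen. It was found in 1 of the 9, that of Kctd8, and in 1.79% of all windows, and a match of letters is not a binding site.

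Gabbr2 lies on chromosome 4 (46662305 to 46991873, minus strand, GRCm38, GENCODE M21). Its highest level was 11.5 times its lowest, the smallest such ratio among Gabbr1, Gabbr2 and Kctd12. Only these genes had more than 3 fragments in every neuron, and for the others no ratio was taken. Gabbr2 was at 95.8, 39.4 and 26.9 FPKM in the Dbx1-derived Type-1 neurons (samples 5, 6 and 7). The WT Type-1 neuron, sample 4, had 8.30 FPKM and the Type-2 neuron, sample 1, had 11.1 FPKM. In the Unknown neurons Gabbr2 was at 10.98, 8.52, 11.7, 13.2 and 10.3 FPKM (samples 2, 3, 8, 9 and 10), a mean of 11 ± 1.74 FPKM (SD, n = 5 neurons), and their highest level was 1.55 times their lowest. The 3 Dbx1-derived Type-1 neurons thus lay above the other 7, the lowest of them 2.03 times the highest of the others. These levels rest on 1593 to 23455 fragments, so counting error is small beside the difference. Fragments are not independent molecules, so error from RNA capture and amplification is not covered. With 1 library per neuron that error was not measured. By the study's account samples 1 to 4 yielded the least cDNA. Among samples 5 to 10 alone, the 3 Dbx1-derived Type-1 neurons (26.9 FPKM and above) lay over the 3 Unknown neurons (10.3 to 13.2 FPKM). For that split, and for the 3 neurons against the other 7, the share of all genes that lay apart was not computed.

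With all 4 Type-1 neurons against the 5 Unknown neurons, 0 of the 7 genes at or above 1 FPKM in any of them had ranges that did not overlap. Among all 16238 genes compared in that way, 0.591% lay wholly higher and 0.4% wholly lower in Type-1 neurons. With the 3 Dbx1-derived Type-1 neurons alone, 1 of the 7, Gabbr2, lay wholly higher and 0 wholly lower, where 3.1% and 1.3% of all genes did. Between the 4 Dbx1-derived and the 6 WT neurons, 0 of the 7 were apart on the FPKM scale, where 1.04% of all genes lay wholly higher and 0.792% wholly lower in Dbx1-derived neurons. With so few neurons a share of 1 in 7 is 1 gene, and it carries no test.

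The scale of the libraries touched this pattern. In TPM, which corrects for the summed level of each library, Gabbr2 was at 77.2 to 282 in samples 5, 6 and 7, at 33.1 in sample 1 and at 30.5 or less in the 6 WT neurons, so the Dbx1-derived neurons did not overlap with the WT neurons. With size factors from the 6054 genes that had a fragment in all 10 neurons, counts per kilobase were 371 to 1223 in samples 5, 6 and 7, and 126 to 295 in the 6 WT neurons. On that last scale the Type-2 neuron, sample 1, had 599 and lay above samples 6 and 7. Its size factor was 0.398 with 21392146 fragments, while sample 9 with 22072697 fragments had a size factor of 0.989. Samples 5, 6 and 7 lay above the 5 Unknown neurons on all 3 scales, and above the Type-2 neuron on 2 of 3. The share of all genes that lay apart was not computed in TPM or with size factors.

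**Figure D2:**
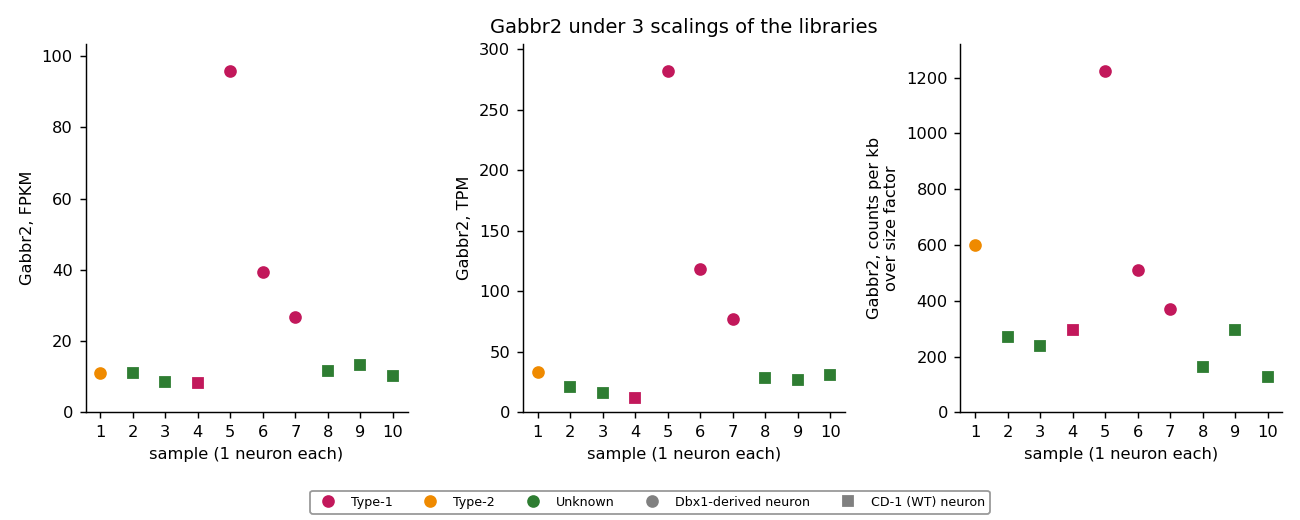
Gabbr2 per neuron as FPKM, as TPM and as counts per kilobase divided by a size factor (3 panels, linear axes from 0, 1 point per library, no error bars). Samples 5, 6 and 7 lie above the Unknown neurons in each panel, and sample 1 moves from 11.1 FPKM beside the Unknown neurons to 599 in the last panel, above samples 6 and 7.

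Gabbr1, on chromosome 17 (37045966 to 37075067, plus strand), varied more. It was at 25.4, 14.5 and 2.26 FPKM in the Dbx1-derived Type-1 neurons, at 1.66 FPKM in sample 4 and at 24.2 FPKM in the Type-2 neuron. In the Unknown neurons it was at 1.31, 0.376, 12.9, 5.75 and 2.87 FPKM (samples 2, 3, 8, 9 and 10). The highest level was 67.4 times the lowest, against 11.5 times for Gabbr2, and the mean was 9.12 ± 9.57 FPKM (SD, n = 10 neurons). Sample 3, the lowest, still had 91 fragments, which is 1.26% of the 7212 fragments in sample 5. Neurons of day 0 held the highest and the lowest level of Gabbr1, so the ages overlapped. Gabbr1a and Gabbr1b, the main isoforms, start at different promoters and cannot be told apart in counts per gene.

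A range of 11.5 times is ordinary for these libraries. Of the 1290 genes at or above 1 FPKM in all 10 neurons, the median gene had a highest level 11.5 times its lowest, and 50.2% of them had a smaller range than Gabbr2.

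Since the receptor is built from both subunits, their levels were set side by side in each neuron. Both genes were at or above 1 FPKM in 9 of 10 neurons, and in 8 of 9 without sample 4. Gabbr2 exceeded Gabbr1 in 8 of 10 neurons, with ratios from 2.30 in sample 9 to 22.6 in sample 3 (95% interval 18.3 to 28.3, exact binomial, counting error only). In the Type-2 neuron, sample 1, the order was turned, with a ratio of Gabbr2 to Gabbr1 of 0.461 (0.434 to 0.488). That is a single library with GABAergic or glycinergic genes, so the ratio cannot be assigned to the type. In sample 8 the levels were nearly even, with a ratio of 0.913 (0.862 to 0.967). The ratios in samples 5, 6 and 7, the Dbx1-derived Type-1 neurons, were 3.78, 2.71 and 11.9, and that in sample 4 was 4.99.

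**Figure D3:**
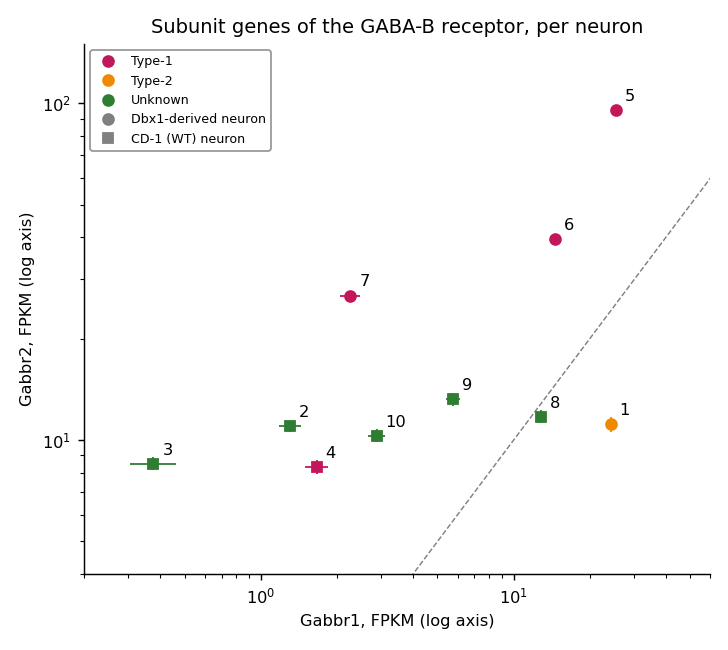
Gabbr2 against Gabbr1 in each neuron (FPKM, log axes, numbers are samples, bars the exact 95% Poisson intervals, dashed line equal levels). Of the 10 neurons 8 lie above the line, sample 8 lies just below it with a ratio of 0.913, and the Type-2 neuron, sample 1, lies below it with a ratio of 0.461.

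The KCTD proteins that bind GABA-B receptors differ in effect: KCTD12 and KCTD12b are known for rapid desensitization of the receptor current, while KCTD8 and KCTD16 leave it largely sustained. Kctd8 (chromosome 5, 69109285 to 69341679) had the highest mean of the 3, 23.6 ± 22.3 FPKM (SD, n = 10 neurons), and was the largest in 7 of the 9 neurons in which any of the 3 reached 1 FPKM. Its levels were 35.0, 9.22 and 22.7 FPKM in samples 5, 6 and 7 and 46.4, 28.6, 9.71, 70.4 and 14.2 FPKM in the Unknown neurons. The Type-2 neuron had 0.0832 FPKM from 6 fragments and sample 4 had 0.0201 FPKM from 2. The groups of Type-1 and Unknown neurons overlapped, and the neurons below 1 FPKM were samples 1 and 4. Of the annotated genes that lie within Kctd8, Gm42888 on the same strand had 655 fragments in sample 6 and at most 5 in any other, and reads of the pair could be split in counting.

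Kctd12 (chromosome 14, 102976581 to 102982637) was at 6.69 ± 6.78 FPKM (SD, n = 10 neurons). Samples 5, 6 and 7 had it at 2.41, 0.0210 and 13.1 FPKM. In the Unknown neurons it was at 4.39, 13.0, 0.317, 9.05 and 4.77 FPKM, and in the Type-2 neuron at 0.0386 FPKM. Its highest level, 19.7 FPKM, was in sample 4, the library with the microglia genes, and there it made up 99.7% of the summed KCTD level. Without sample 4 the mean was 5.24 ± 5.30 FPKM (SD, n = 9 neurons). In samples 7 and 9, where 0 of 8 microglia genes reached 1 FPKM and their sum was 0.935 and 0.625 FPKM, Kctd12 was at 13.1 and 9.05 FPKM. The part of microglial RNA in the level of sample 4 was not tested.

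**Figure D4:**
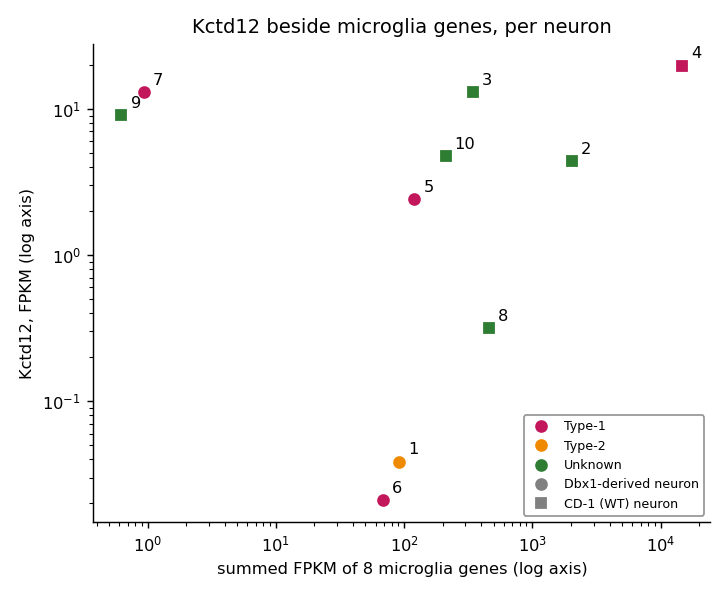
Kctd12 against the summed level of 8 microglia genes in each neuron (FPKM, log axes, numbers are samples, 1 library each). Sample 4 is highest on both axes, at 19.7 and 14797 FPKM, and samples 7 and 9 have 13.1 and 9.05 FPKM of Kctd12 with microglia sums under 1 FPKM.

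Kctd16 (chromosome 18, 40256962 to 40531630) was at 4.92 ± 6.34 FPKM (SD, n = 10 neurons). It was at 10.2, 3.31 and 1.31 FPKM in samples 5, 6 and 7. Of the Unknown neurons, sample 2 had 5.14, sample 3 had 10.2 and sample 8 had 18.8 FPKM. The other Unknown neurons, samples 9 and 10, had 1 and 0 fragments, the Type-2 neuron had 6 and sample 4 had 4. Kctd16 thus was either above 1 FPKM or at a few fragments. In the Type-1 group the only neuron at a few fragments was sample 4, the library with the microglia genes. Its Unknown neurons above 1 FPKM were the 3 with at least 8 of 10 astrocyte genes, whose part was not tested, while samples 5, 6 and 7 had 4, 2 and 2 of those genes.

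The neurons therefore differed in their KCTD sets. All 3 genes were at or above 1 FPKM in 4 neurons (samples 2, 3, 5 and 7). Kctd8 with Kctd16 was found in samples 6 and 8, Kctd8 with Kctd12 in samples 9 and 10, and Kctd12 alone in sample 4. The Type-2 neuron had 0 of the 3, with a summed KCTD level of 0.202 FPKM beside a receptor sum of 35.3 FPKM. Sample 8 was the neuron in which Kctd16 was largest, at 65.3% of the KCTD level. Kctd12b, a close relative of Kctd12, had 0 fragments in all 10 neurons.

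**Figure D5:**
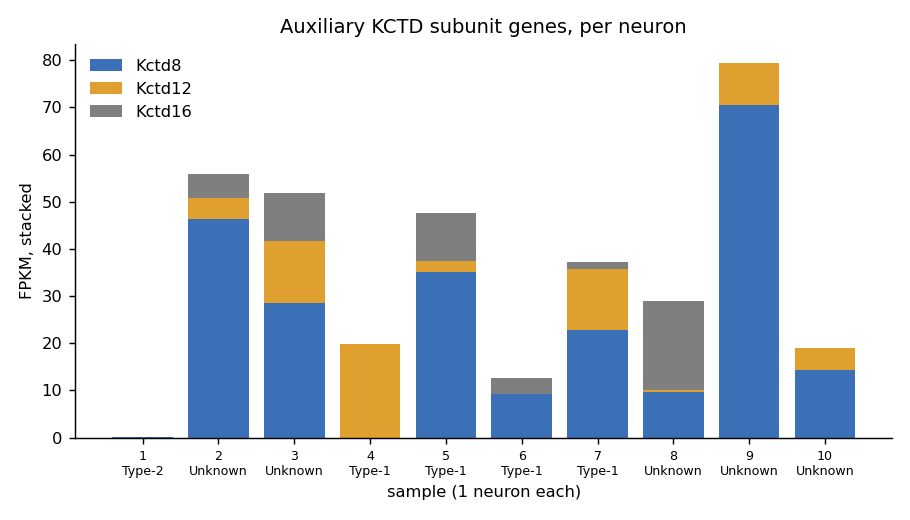
Stacked FPKM of Kctd8, Kctd12 and Kctd16 in each neuron (linear axis from 0, 1 library per bar, no error bars). Kctd8 is the largest part in 7 bars, Kctd12 takes 99.7% in sample 4 and Kctd16 65.3% in sample 8, and the bar of sample 1 reaches only 0.202 FPKM, with too few fragments to rank.

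GIRK channel genes were sparse. Kcnj3, which encodes GIRK1 (chromosome 2, 55435970 to 55598145), was at 23.8 FPKM in the Unknown sample 9, from 2735 fragments (95% Poisson interval 2633 to 2839). Sample 3 followed with 94 fragments or 0.579 FPKM, and each of the other 8 neurons had 2 fragments or fewer. Sample 9 held 97.4% of the summed Kcnj3 level of the 10 neurons. Other genes also set that library apart. Calca, Calcb, Slc18a3, Chodl and Gal had 10403 to 46992 fragments there and at most 57 in any other. Nefl was at 1929 FPKM and Slc17a6 at 0.495 FPKM in sample 9, and the kind of neuron it was has not been tested.

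Kcnj9, which encodes GIRK3 (chromosome 1, 172320501 to 172329318), was at 9.60 FPKM in sample 7 (Type-1, Dbx1-derived), 4.59 FPKM in sample 10 (Unknown) and 2.35 FPKM in sample 4. These levels rest on 1057, 600 and 297 fragments, and the other 7 neurons had 1 or 0. Within both the Type-1 and the Unknown group Kcnj9 was present in some neurons and at 0 in others. Kcnj10, its neighbour on the chromosome and a channel gene of astrocytes, was at 4.54 FPKM in sample 4 and at 0 FPKM in samples 7 and 10. Its relation to the astrocyte genes across neurons was not tested. Of the neurons with most of those genes, sample 2 had 48.5 FPKM, but samples 3 and 8 had 0.00594 and 0.125 FPKM. Of the neurons with few of them, sample 6 had 3.58 FPKM and samples 7 and 9 had 0 FPKM.

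Kcnj6, which encodes GIRK2, the usual partner of GIRK1 in brain, had 5 fragments in sample 8, 1 in sample 10 and 0 in the other 8 neurons. Kcnj5, which encodes GIRK4, had 2 fragments in sample 9 and 0 elsewhere. In the neurons with a count of 0, the limit of 3 fragments that such a count allows (one-sided) was 0.0107 to 0.0184 FPKM for Kcnj6 and 0.0175 to 0.0299 FPKM for Kcnj5. The two-sided Poisson interval of a count of 0 ends at 3.69 fragments and is not drawn in the plot of the 9 genes. Reads without molecular identifiers are not independent molecules, and such limits cover counting error alone, not RNA lost between pipette and library.

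Neurons in which receptor and channel genes met were few. Gabbr1, Gabbr2 and at least 1 GIRK gene were at or above 1 FPKM in 4 of 10 neurons (samples 4, 7, 9 and 10), or 3 of 9 without sample 4. In none of them were 2 GIRK genes at that level: Kcnj3 stood with another GIRK gene in 0 of 10 neurons, also at a limit of 0.1 FPKM. Sample 7 was the neuron with the fullest set, holding Gabbr1, Gabbr2, Kctd8, Kctd12, Kctd16 and Kcnj9.

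Very low counts need a scale. In 19 genes nearly private to 1 library (at least 10000 fragments there and, by the choice, at most 1% of that in any other), the other libraries held a median of 0.00385% and at most 0.381% of the fragments of the private library. Of the 171 pairs of such a gene and another library, 87 had any fragment. The counts below 1 FPKM of Kctd8, Kctd16 and Kcnj9 were at most 0.106%, 0.345% and 0.0946% of the count in the library where the gene was highest. Apart from Kcnj5 and Kcnj6, which stayed below 1 FPKM in every library, the values above that range were those of Gabbr1 in sample 3 (1.26%), Kctd12 in sample 8 (1.45%) and Kcnj3 in sample 3 (3.44%). Because the choice left out any gene above 1%, the range cannot tell whether these values are expression. Few fragments in a neuron are therefore given here as low and not as expression.

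Across the 10 neurons the levels of Gabbr1 and Gabbr2 had a Spearman correlation of 0.709, and 0.667 without sample 4. Gabbr1 and Kctd12 had a correlation of -0.721, and -0.733 without sample 4. Among the 5 genes at or above 1 FPKM in at least 5 neurons the other 8 pairs ran from -0.491 to 0.273 with all 10 neurons and from -0.4 to 0.6 without sample 4. Leaving that library out moved Kctd8 with Kctd12 from 0.164 to 0.6, Gabbr1 with Kctd8 from -0.188 to -0.4 and Gabbr2 with Kctd8 from 0.273 to 0. These are descriptions of 10 libraries that also differ in complexity and in glial genes.

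The genes most like each of them were sought among 7530 genes at or above 1 FPKM in at least 5 neurons, by Spearman correlation over the 10 neurons. For Gabbr2 they were Cacna1b and Ppp2r1a, each at 0.952, followed by Mab21l2, Gtf2h1 and Pkm at 0.939. Cacna1b encodes the pore of the N-type calcium channel, which GABA-B receptors are known to inhibit at nerve terminals, Ppp2r1a a scaffold subunit of a phosphatase, and Pkm a glycolytic enzyme. For Gabbr1 they were Ccndbp1 (1), the pentose phosphate enzyme gene Tkt (0.988) and Tmem50b (0.964). For Kctd8 they were the endocytic adaptor gene Pacsin1 and the predicted genes Gm14760 and Gm12537, each at 0.988. For Kctd12 they were Glrx (0.915), Bcor (0.879) and Ndufa1 (0.867), and among those for Kctd16 were Tmed7 (0.891) and E2f5 (0.877). Without sample 4 these correlations ran from 0.817 to 1. The 10 points share their libraries, and with 7530 genes high values are common.

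The G proteins between receptor and channel were widely found. Of 5 alpha subunit genes of the Gi/o class, each neuron had 3 to 5 at or above 1 FPKM. Gnao1, the main alpha subunit of neurons, was at 0.0307 FPKM in sample 4 and between 11.7 and 36.8 FPKM in the other 9. Gnai1 had the highest mean, 67.2 ± 57.9 FPKM (SD, n = 10 neurons), followed by Gnai2 at 52.2 ± 50.2 and Gnaz at 50.01 ± 33.5 FPKM.

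Of the 5 beta subunit genes, Gnb1 and Gnb2 were at or above 1 FPKM in all 10 neurons, with 170 ± 125 and 52.6 ± 27.9 FPKM (SD, n = 10 neurons). Gnb5, which pairs with RGS proteins of the R7 family in place of a gamma subunit, was at 48.4 ± 41.1 FPKM and under 1 FPKM in samples 3 and 4, and Gnb4 was at 13.3 ± 12.5 FPKM. Gnb3 did not reach 1 FPKM in any neuron. Of the 8 gamma subunit genes 3 were at or above 1 FPKM in all 10 neurons: Gng3, a neuronal gamma subunit, at 168 ± 69.6 FPKM, Gng2 at 49.8 ± 28.3 FPKM and Gng12 at 26.4 ± 28.4 FPKM. Gng4 was at 76.4 ± 63.7 FPKM and Gng5 at 59.7 ± 96.6 FPKM, the latter with 312 FPKM in sample 4.

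RGS proteins end G protein signals. Of 11 genes of RGS proteins and their partners each neuron had 2 to 7 at or above 1 FPKM, and 0 were at that level in all 10. Rgs7bp, which anchors R7 RGS proteins at the membrane, was at 12.0 ± 5.79 FPKM and under 1 FPKM in sample 1 alone. Rgs2 had the highest mean, 41.0 ± 83.1 FPKM, and 271 FPKM in sample 4, where microglia genes were high, and between 0.142 and 68.0 FPKM in the other 9. Rgs4 was at 31.6 ± 35.3 FPKM, Rgs7 at 17.3 ± 18.2 FPKM and Rgs11 at 13.7 ± 14.6 FPKM. Gpr158, which recruits RGS7 to the membrane, was at 12.2 FPKM in sample 9, the neuron with Kcnj3, and did not exceed 0.0707 FPKM in the other 9.

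Of 8 genes for partners of the receptor and of the channel each neuron had 3 to 7 at or above 1 FPKM. App, whose product binds the extracellular domain of GABBR1, was at that level in all 10 neurons, at 27.0 ± 16.2 FPKM. Kctd2, Kctd5 and Kctd17, KCTD genes outside the receptor-binding group, were at 30.2 ± 36.0, 28.7 ± 26.3 and 25.6 ± 23.7 FPKM. In the Type-2 neuron, where Kctd8, Kctd12 and Kctd16 had 6, 5 and 6 fragments, Kctd2 was at 122 FPKM and Kctd5 at 87.0 FPKM, the highest of the 10 for both. Kctd17 was at 0.0368 FPKM there, the lowest of the 10. Snx27, a sorting protein of GIRK channels, was at 11.8 ± 14.8 FPKM and at or above 1 FPKM in 7 neurons.

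Other inward rectifier genes were also sparse. Of 10, 5 reached 1 FPKM in no neuron. Kcnj16 was at 50.6, 53.6 and 20.01 FPKM in samples 2, 3 and 8, the 3 neurons with at least 8 of 10 astrocyte genes, and did not exceed 0.131 FPKM elsewhere. Kcnj10 was at 48.5 FPKM in sample 2, and at or above 1 FPKM also in samples 4 and 6. Kcnj14 stood at 16.4 FPKM in sample 6 and 19.5 FPKM in sample 7, both Type-1, and did not exceed 0.0667 FPKM in the other 8, and Kcnj12 reached 1 FPKM in sample 6 alone. Kcnj11 was at 2.49 FPKM in the Type-2 neuron.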

How the data were processed

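Libraries of 10 single neurons (SMART-Seq v4, Nextera, paired-end reads) were trimmed with bbduk, aligned with STAR 2.7.7a to GRCm38 with Ensembl annotation and counted with featureCounts by the authors. How fragments with several matches were counted, and whether strand was used, is not given in the sources used here. The deposited counts are raw fragments per gene, and the deposited FPKM values, as recomputed here, are those counts divided by the deposited length in kilobases and by the library total in units of 1000000. From these files, FPKM per neuron, TPM, exact Poisson and binomial intervals (95%), ratios, Spearman correlations and counts at or above 1 FPKM were computed with Python 3.11.15, NumPy 2.4.6, pandas 2.3.3 and SciPy 1.17.1, and figures were drawn with Matplotlib 3.10.9. The search steps were tested on simulated data.

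The genes and lists were chosen with earlier results of these data known. The named genes are the 9 listed, for each that reached 1 FPKM in at least 5 neurons the 3 most like it (more where tied), of which 1 is not reported here, and from the pathway lists up to 4 with the highest mean and those in all 10 neurons. Kctd12b, Gm42888, Gpr158, Rgs7bp, Snx27, Kcnj11 and Slc6a11 were singled out after their values were seen. So were Slc6a5, Slc32a1, Nefl, Calca, Calcb, Slc18a3, Chodl and Gal. Each sample is 1 neuron and no animal is named, so no test was made. A neuron in which a count of 0 was found can hold up to 3 fragments by chance, 0.0819 to 0.14 per 1000000 fragments. Ranges were called apart where the lowest value of one group exceeded the highest of the other, over genes at or above 1 FPKM in at least 1 neuron compared. Positions are from GENCODE M21 and promoters from RefSeq, both GRCm38. Alternatives were TPM, other limits (0.1 and 5 FPKM), other pseudocounts (1 and 0.1), counts of 3 or fewer set to 0, leaving out each neuron and, chosen after seeing the data, median-of-ratios size factors.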

Additional observations from a re-analysis of the deposited data

Results flagged for a closer look

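In 16 groups of 4 or 5 neurons examined on the scale of log2(FPKM + 1), 4 held a neuron far from the rest by Dixon's criterion, where about 1 in 20 groups would by chance. All 4 are GIRK genes in the Unknown neurons, whose values are mostly at or near 0, so that any neuron with fragments stands apart. Kcnj3 was at 23.8 FPKM in sample 9, against 0.579 FPKM in the next neuron. Kcnj9 was at 4.59 FPKM in sample 10, against 0.00878 FPKM in the next. Kcnj6 was at 0.0247 FPKM in sample 8 and Kcnj5 at 0.0193 FPKM in sample 9, which are 5 and 2 fragments.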

How the results depend on the processing

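The values examined were 7 counts or means over neurons and the mean level of each of the 9 genes. TPM, size factors and leaving out a neuron were run on both kinds, setting low counts to 0 on the 7, other limits on the 4 of them that use a limit, and pseudocounts and the means over neurons with fragments on the levels alone. At a limit of 5 FPKM both receptor genes were found in 5 neurons, both with a GIRK gene in 1 neuron, and the mean number of genes per neuron was 3.3. Genes apart between Dbx1-derived and WT neurons were 0 on the FPKM scale and 1 (Gabbr2) in TPM and with size factors. Leaving out 1 neuron gave 0 to 1 gene apart between Type-1 and Unknown neurons (Gabbr2 without sample 4) and 0 to 1 between Dbx1-derived and WT neurons (Gabbr2 without sample 1, Gabbr1 without sample 7). For these alternatives no share over all genes was computed. The mean level of Gabbr2 was 23.6 FPKM with all neurons and 15.6 FPKM without sample 5, and that of Kcnj3 fell from 2.44 to 0.0695 FPKM without sample 9. Without sample 7 the mean of Kcnj9 was 0.773 FPKM against 1.66 with it. The remaining 91 values of the 7 counts and means moved by less than 1.5 times or 1 SD. Of the mean levels 128 moved by less than 1 SD between neurons and 7 moved further, 5 of them in TPM. That SD is wide. For Kcnj3 it was 7.49 FPKM with a mean of 2.44 FPKM, so a fall to 0 would also stay within it. The 128 therefore do not show that the levels are stable. No paired analysis was possible because the replicate numbers only name neurons and no test was made. The depth limits statements on genes with 3 fragments or fewer.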

Other observations

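Genes for the supply of GABA and for the cyclic AMP arm of GABA-B signalling were also followed. Of 6 genes of GABA synthesis and transport each neuron had 2 to 5 at or above 1 FPKM. Abat, which breaks GABA down, was at 31.0 ± 25.4 FPKM (SD, n = 10 neurons) and at that level in 9 neurons, while Gad1 and Gad2, which make GABA, were so in 4 and 5. The 3 neurons with both Gad1 and Gad2 (samples 1, 3 and 10) had Gabbr1 at 24.2, 0.376 and 2.87 FPKM and Gabbr2 at 11.1, 8.52 and 10.3 FPKM. The astrocyte GABA transporter gene Slc6a11 was highest in samples 8 and 3, at 27.3 and 26.2 FPKM, which are among the neurons with most astrocyte genes. Sample 2, also among them, had 5.24 FPKM. Samples 6 and 7, with 2 of the 10 astrocyte genes each at or above 1 FPKM, had 4.94 and 5.06 FPKM.

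Adenylyl cyclases are inhibited by alpha subunits of the Gi class. Of 8 genes 0 were at or above 1 FPKM in all 10 neurons, 6 were in at least 1 neuron, and each neuron had 0 to 5. Adcy2 had the highest mean, 6.75 ± 9.00 FPKM, with 13.3 to 22.4 FPKM in samples 5, 7, 8 and 10 and at most 0.0215 FPKM in the others. Adcy5 followed with 6.25 ± 8.39 FPKM. The Type-2 neuron, which had 0 of the 3 KCTD genes and 0 of the 4 GIRK genes at or above 1 FPKM, also had 0 of the 8 cyclase genes at that level, as did sample 2. The library of the Type-2 neuron was the shallowest, with 21392146 fragments and 5065 genes at or above 1 FPKM. The part of this in the genes below that level was not tested.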
